A study of Homo sapiens with 108 samples.

Results

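TMEM200A is a human gene on chromosome 6 that encodes a predicted membrane-spanning protein, and it is described here across 4 lymphoma cell lines treated with an inhibitor of EZH2. It is 1 gene of the 19775 that the array's annotation names singly, and all its measurements come from the 1 probe set annotated to it, 234994_at. The gene was chosen from its values in these arrays, because it was higher after treatment in some lines and not in others. Its levels, differences and ranks are therefore given as a description, without tests. Tests are reported for other genes only.

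EPZ6438 is a small molecule that blocks the enzymatic activity of EZH2. It was given to 4 established lines of non-Hodgkin lymphoma, called SU-DHL6, WSU-DLCL2, Karpas422 and Pfeiffer, and RNA was measured on expression arrays. A line received DMSO, which is the solvent control, EPZ6438 at a dose named LCC, or EPZ6438 at the dose 10xLCC. Samples of days 2, 4 and 6 gave 36 groups of 3 arrays, 27 for each line. The series description states that SU-DHL6, WSU-DLCL2 and Karpas422 have EZH2 mutated at Y641 and that Pfeiffer lacks this mutation. LCC was set for each line, and the sources used here do not give its concentration, so equal dose names do not mean equal concentrations in different lines. The arrays of a group are named A, B and C, and nothing in the labels says whether they were separate cultures, so p-values measure only the spread between these arrays, which may be technical.

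EZH2 is the catalytic subunit of PRC2, the complex that methylates histone H3 at lysine 27 and thereby keeps its target genes silent. PRC2 is typically found at CpG-rich promoters of genes that are silent in the cell type at hand. The Y641 mutation changes a residue in the catalytic domain and favours trimethylation of this lysine, and it recurs in lymphomas of germinal centre B cell origin. TMEM200A belongs to a family with TMEM200B and TMEM200C whose functions are poorly known.

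Arrays of a group were close to each other with few exceptions. An array's median root mean square distance from the other arrays of its group was 0.175 (log2). The highest were 0.699, for replicate B of Pfeiffer at LCC on day 6, and 0.466, for replicate A of SU-DHL6 with DMSO on day 2. B cell markers were bright in every line: 5 of 6 were measured, with medians over a line's arrays of 8.39 to 13.8 (log2 intensity). The medians of the 6 T and NK cell markers were 4.55 to 8.74, and those of the 4 of 5 myeloid markers that were measured were 4.36 to 6.56. The medians of the 6 epithelial and stromal markers were 3.84 to 11.8. The highest was that of EPCAM, an adhesion protein of epithelia, in Pfeiffer, against 3.84 to 3.91 in the other lines. The epithelial markers KRT19 and CDH1 had medians of 5.29 and 5.08 in Pfeiffer, 5.33 to 5.47 and 5.06 to 5.14 in the other lines.

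In the RefSeq annotation of GRCh38.p14, TMEM200A lies on the plus strand at chr6:130365531-130443067 and spans 77537 bases. SAMD3, which encodes a protein with a sterile alpha motif domain, lies head to head with it on the minus strand at chr6:130142752-130365868. Their annotated spans share 338 bases. The transcript of TMEM200A in the promoter table starts at position 130366017, and the nearest of 3 SAMD3 transcript starts is at 130365868, so a segment of 148 bases separates these starts. It lies within the annotated span of TMEM200A, which begins further upstream. It is printed because it lies before the listed starts of both TMEM200A and its nearest neighbour. The sequence, from RefSeq, is that of chr6:130365869-130366016 on the plus strand, read 5′ to 3′ towards TMEM200A, with each CpG in capitals.

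Segment between the listed transcript starts of SAMD3 and TMEM200A: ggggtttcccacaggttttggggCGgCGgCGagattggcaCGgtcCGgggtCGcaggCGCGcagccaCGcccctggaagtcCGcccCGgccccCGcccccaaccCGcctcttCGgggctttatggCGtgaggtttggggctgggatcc

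This segment held 15 CpG, and 72.3% of its bases were G or C. The letters of the GC box, GGGCGG, occurred 1 time on the plus strand and 2 times as the reverse complement, CCGCCC. In the 300-base window from 250 bases before to 50 bases after the TMEM200A start there were 25 CpG, against a median of 14 over 35116 such windows of the RefSeq table, and 68.0% of windows held fewer. The window held 3 GC box matches on both strands together. At least 1 match was present in 45.0% of all windows and at least 3 in 15.8%. By these letters the gene starts in a CpG-rich promoter.

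Without the inhibitor, TMEM200A was near the bottom of the measurable range in every line. The 9 DMSO arrays read 3.57 to 4.43 in WSU-DLCL2 (log2 intensity, median 4.11), 4.09 to 4.44 in SU-DHL6 (median 4.18), 3.63 to 4.07 in Karpas422 (median 3.93) and 3.69 to 4.06 in Pfeiffer (median 3.89). These ranges overlapped between all lines except those of SU-DHL6 with Karpas422 and Pfeiffer. The SU-DHL6 arrays lay above all DMSO arrays of those 2 lines by a small margin. On all 36 DMSO arrays the probe set ranked between percentiles 6.42 and 17.7 of the probe sets of its array.

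**Figure D1:**
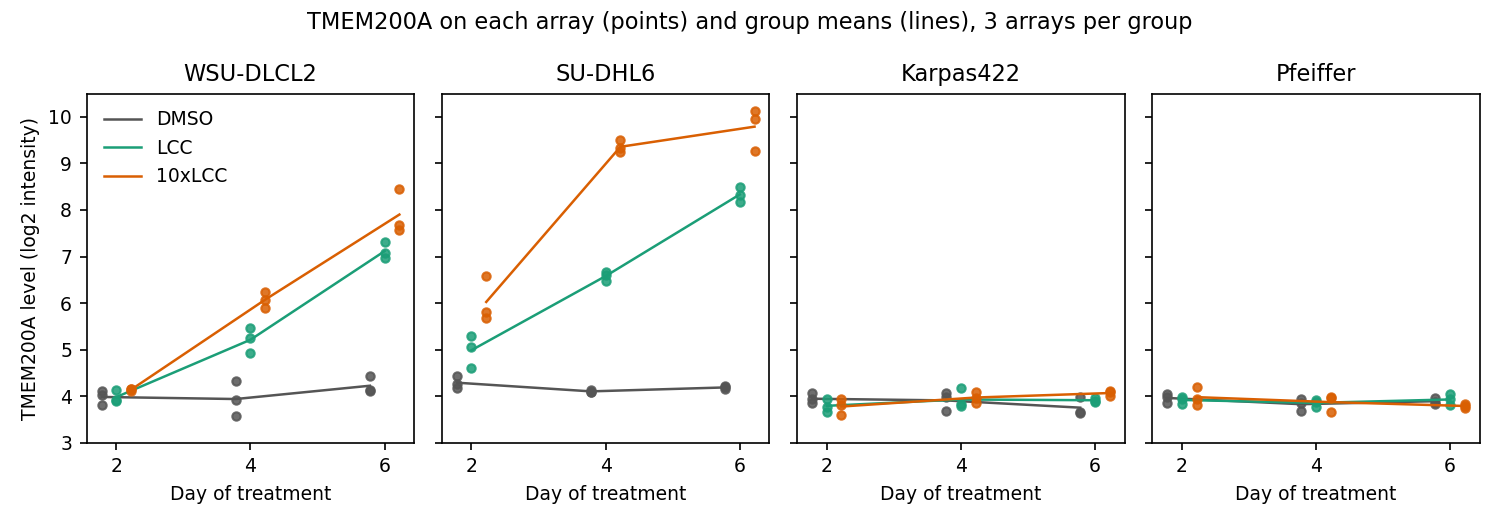
TMEM200A on each array as log2 intensity (vertical axis) against the day of treatment (horizontal axis), in 1 panel per line. Points are arrays, lines join the means of 3 arrays, and colours are DMSO, LCC and 10xLCC. WSU-DLCL2 and SU-DHL6 climb with dose and day to 7.90 and 9.79, whereas all 54 arrays of Karpas422 and Pfeiffer stay between 3.60 and 4.20.

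SU-DHL6 responded first. On day 2 its arrays read 4.18, 4.44 and 4.25 with DMSO, 4.61, 5.30 and 5.05 at LCC, and 6.57, 5.81 and 5.69 at 10xLCC. The 3 groups did not overlap, and both doses were above every DMSO array of the series. DMSO replicate A, at 4.18, was the array that lay 0.466 from its group over all genes. In RNA of whole cultures, more cells with the transcript and more transcript per cell cannot be told apart. The differences from DMSO were 0.70 ± 0.19 (log2, SE, n = 3) at LCC and 1.73 ± 0.19 at 10xLCC.

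By day 4 the SU-DHL6 arrays read 4.09, 4.13 and 4.10 with DMSO, 6.67, 6.59 and 6.47 at LCC, and 9.50, 9.33 and 9.24 at 10xLCC. The higher dose was 2.78 above the lower, 6.85-fold, the widest gap between doses in this line. On day 6 they read 4.21, 4.15 and 4.21 with DMSO, 8.33, 8.18 and 8.49 at LCC, and 9.27, 10.13 and 9.96 at 10xLCC. All treated arrays were again far above DMSO, while the gap between doses had narrowed to 1.46.

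The 2 doses followed different courses in SU-DHL6. At 10xLCC the mean gained 3.33 from day 2 to day 4 and 0.43 from day 4 to day 6, and the arrays of these last 2 groups overlapped. At LCC the gains were 1.59 and 1.75. The brightest array reached percentile 91.4 of its probe sets. Relative to DMSO, TMEM200A showed the largest increase of all 18895 genes tested in SU-DHL6 in 4 comparisons, both doses on day 4 and both on day 6. On day 6 at 10xLCC it was first with all arrays and second when replicate B or replicate C was left out.

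WSU-DLCL2 started later. On day 2 its arrays read 4.03, 4.12 and 3.81 with DMSO, 4.14, 3.90 and 3.92 at LCC, and 4.16, 4.10 and 4.15 at 10xLCC. The groups overlapped, and the difference of 10xLCC from DMSO was 0.16 ± 0.19. No change was detectable at this spread on day 2.

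On day 4 the WSU-DLCL2 arrays read 4.33, 3.57 and 3.92 with DMSO, 5.25, 4.93 and 5.46 at LCC, and 5.90, 6.25 and 6.07 at 10xLCC. The 3 groups were apart and ordered by dose, with differences from DMSO of 1.27 ± 0.19 and 2.13 ± 0.19. On day 6 they read 4.43, 4.11 and 4.14 with DMSO, 7.31, 6.96 and 7.08 at LCC, and 8.46, 7.67 and 7.57 at 10xLCC. The day 6 differences were 2.89 ± 0.19 at LCC, 7.41-fold, and 3.67 ± 0.19 at 10xLCC, 12.8-fold. Replicate A was the highest of the 3 on day 6 at both doses and in DMSO.

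No flattening was seen in WSU-DLCL2 up to day 6. At 10xLCC the mean gained 1.93 from day 2 to day 4 and 1.83 from day 4 to day 6, and at LCC it gained 1.23 and 1.90. The gap between doses was 0.86 on day 4 and 0.78 on day 6, smaller than in SU-DHL6 on each day. Among the 18842 genes tested in WSU-DLCL2, TMEM200A had the 10th largest increase at LCC and the 13th largest at 10xLCC on day 6, after places 180 and 85 on day 4. The brightest array reached percentile 78.3.

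At the same dose name and day, SU-DHL6 was the higher of the 2 responding lines throughout. At 10xLCC it stood above WSU-DLCL2 by 1.88 on day 2, 3.28 on day 4 and 1.89 on day 6, and at LCC by 1.01, 1.37 and 1.22. The arrays of the lines did not overlap in any of these 6 pairs of groups. The doses need not be equal in concentration, so these are levels side by side and not a comparison of sensitivity.

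Karpas422 also has EZH2 mutated at Y641 and showed no such increase. On day 6 its arrays read 3.63, 3.98 and 3.65 with DMSO, 3.96, 3.87 and 3.91 at LCC, and 4.00, 4.11 and 4.10 at 10xLCC. The 10xLCC arrays lay above the DMSO arrays by a narrow margin, with a difference of 0.31 ± 0.12. It was 0.54 with arrays centred on bright genes and 0.150 with a pseudocount of 16. The DMSO mean of that day, 3.76, was also the lowest of all 36 group means, and the 10xLCC mean of 4.07 equalled, to 2 decimals, the highest Karpas422 DMSO array, which was from day 4. On days 2 and 4 the treated and DMSO arrays of Karpas422 overlapped at both doses.

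Pfeiffer likewise stayed at the level of its controls. On day 6 its arrays read 3.83, 3.97 and 3.89 with DMSO, 3.94, 4.05 and 3.81 at LCC, and 3.75, 3.84 and 3.78 at 10xLCC. The groups overlapped, and the 10xLCC difference was -0.10 ± 0.11. Over the 12 comparisons of a treated group with DMSO in Karpas422 and Pfeiffer, differences ran from -0.17 to 0.31, and arrays were apart in 1, the day 6 comparison given above. Near the background level a small true change may not be detectable.

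Ordered by group mean, 10 groups stood above every DMSO array, all of them treated SU-DHL6 or WSU-DLCL2. The order was SU-DHL6 at 10xLCC on day 6 (9.79) and day 4 (9.36), SU-DHL6 at LCC on day 6 (8.33), and WSU-DLCL2 on day 6 at 10xLCC (7.90) and LCC (7.12). Then came SU-DHL6 at LCC on day 4 (6.58), WSU-DLCL2 at 10xLCC on day 4 (6.08), SU-DHL6 at 10xLCC on day 2 (6.02), WSU-DLCL2 at LCC on day 4 (5.21) and SU-DHL6 at LCC on day 2 (4.99). Neighbours in this order whose arrays overlapped were those at 9.79 and 9.36, at 8.33 and 7.90, at 6.08 and 6.02, and at 5.21 and 4.99. The other 26 groups had means from 3.76 to 4.29 and no clear order.

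A measure of RNA quality moved with some of these groups. For beta-actin the control probe set near the 3′ end was compared with that near the 5′ end, since their log2 ratio grows as RNA is degraded. It was 0.34 ± 0.13 (SD) in SU-DHL6 at 10xLCC on day 6 against -0.18 ± 0.03 in its DMSO group. In Karpas422 on day 6 it was 1.25 ± 0.22 with DMSO, 2.37 ± 1.22 at LCC and 2.25 ± 0.51 at 10xLCC. On day 4 it was -0.05 ± 0.03 in SU-DHL6 at 10xLCC and -0.12 ± 0.02 with DMSO, and TMEM200A was 5.25 ± 0.19 above DMSO there. With the ratio as a covariate, added after the data were seen, the day 6 difference in SU-DHL6 was 6.32. Mean ratios of the other SU-DHL6 groups were -0.18 to 0.005, so the ratio largely marks the 10xLCC group of day 6. Treatment and RNA quality therefore cannot be told apart there. Calls lost with the covariate in SU-DHL6 cannot be credited to either. In Karpas422 on day 6 the ratios at 10xLCC were 1.71, 2.72 and 2.33, all above those with DMSO, 1.02, 1.46 and 1.26. Treatment and RNA quality thus cannot be told apart in that comparison either, which limits all Karpas422 day 6 results given here. With the covariate 6849 of 18873 genes were called in it, beside 7094 without.

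The genes around TMEM200A did not show a comparable increase. Of 21 genes annotated within 1 Mb, 8 were measured by a probe set of their own: LAMA2, LOC102723409, ARHGAP18, L3MBTL3, SAMD3, SMLR1, EPB41L2 and AKAP7. All 8 passed the filter on dim genes in every line. On day 6 at 10xLCC, limma called 2 of them higher in WSU-DLCL2, where 36.1% of all genes were called in either direction. It called 3 higher and 1 lower in SU-DHL6 against 46.5% of all genes, 1 higher in Karpas422 against 37.6%, and none in Pfeiffer against 0.222%, where none had an unadjusted p below 0.05. The counts of 2, 4 and 1 of 8 neighbours in the lines mutated at Y641 were thus lower than or near the share of all genes. Their median difference was 0.07, -0.08, 0.03 and 0.06 in the 4 lines in the order above, beside medians of 0.02, -0.11, -0.03 and 0.02 over all genes.

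**Figure D2:**
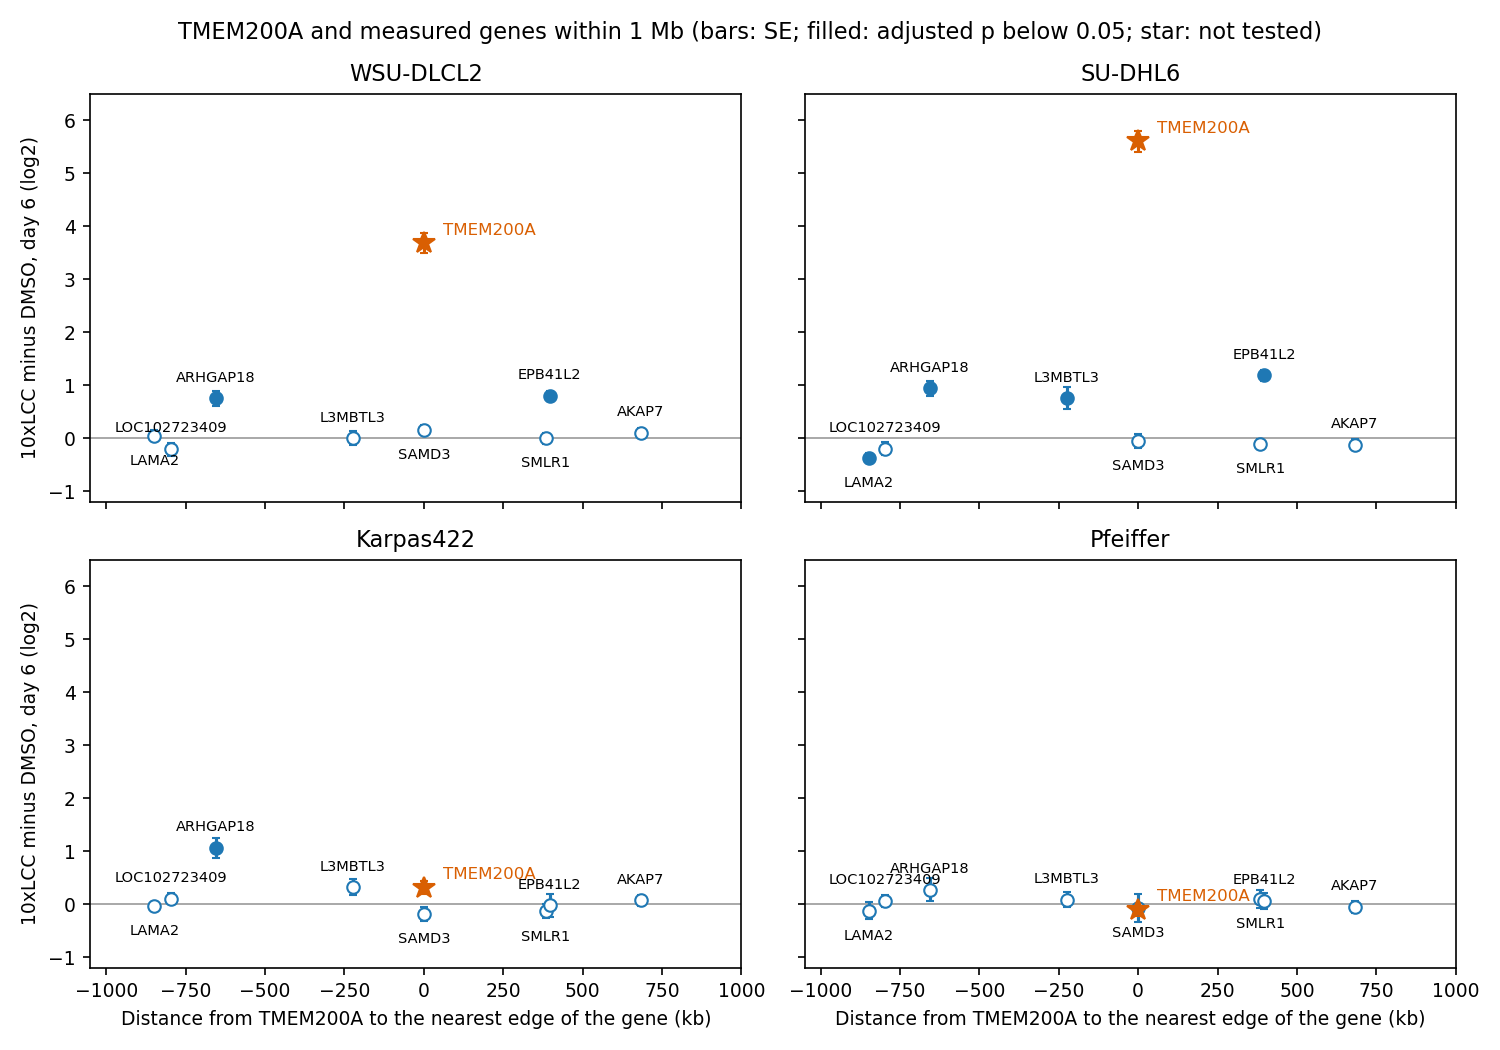
Difference of 10xLCC from DMSO on day 6 (log2, vertical axis) for TMEM200A and the 8 measured genes within 1 Mb, against their distance from TMEM200A in kb (horizontal axis), in 1 panel per line. Bars are SE, filled points are genes with an adjusted p below 0.05 by limma, and the star is TMEM200A, which was not tested. The star stands at 3.67 and 5.60 in WSU-DLCL2 and SU-DHL6, and no neighbour exceeds 1.19 by its brightest probe set, the one drawn. The AKAP7 probe set 205771_s_at, not drawn, was at 1.51 in WSU-DLCL2.

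SAMD3, with a start at the other end of the CpG-rich segment, stayed near the low end of the range. Its brighter probe set ran from 3.69 to 4.34 over the 27 arrays of SU-DHL6. Its difference on day 6 at 10xLCC was -0.06 ± 0.13 in SU-DHL6 and 0.15 ± 0.09 in WSU-DLCL2, and neither passed the test. In WSU-DLCL2 it passed when arrays were centred on bright genes, at 0.31 (adjusted p = 0.0091), and without replicate A, at 0.30 (adjusted p = 0.037). Over all arrays of the series the 2 probe sets of SAMD3 read 3.67 to 5.57 and 3.34 to 4.15. The value of 5.57 was from the Pfeiffer array that stood apart from its group, and the next highest was 4.54.

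ARHGAP18, which ends 655 kb before TMEM200A, rose in all 3 Y641 lines on day 6 at 10xLCC by its brightest probe set. It went from 3.92 ± 0.10 (SD, n = 3) to 4.67 ± 0.26 in WSU-DLCL2, from 5.48 ± 0.12 to 6.42 ± 0.12 in SU-DHL6 and from 4.48 ± 0.46 to 5.54 ± 0.12 in Karpas422. These rises of 0.75 ± 0.15, 0.94 ± 0.14 and 1.06 ± 0.20 (SE) had adjusted p-values of 0.00021, 3.6e-06 and 7.2e-05. Its probe set 225173_at differed in WSU-DLCL2, at 0.11 ± 0.15 (adjusted p = 0.64), and was at 0.59 ± 0.14 in SU-DHL6 and 0.81 ± 0.15 in Karpas422. The dimmest probe set, 225166_at, was at 0.48 ± 0.20 in SU-DHL6 and 0.16 ± 0.14 in Karpas422. Neither was called (adjusted p = 0.052 and 0.44 by limma over single probe sets). By its other probe sets ARHGAP18 thus rose in Karpas422, in which TMEM200A stayed near its DMSO level. Pfeiffer already had the highest untreated level, 7.50 to 8.46 on DMSO arrays.

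EPB41L2, a protein that links membranes to the cytoskeleton and starts 396 kb beyond TMEM200A, rose on day 6 at 10xLCC in the 2 lines in which TMEM200A was higher. Its brightest probe set rose by 0.80 ± 0.09 in WSU-DLCL2 (adjusted p = 6.6e-08) and by 1.19 ± 0.11 in SU-DHL6 (adjusted p = 1.1e-09). The differences were -0.02 ± 0.22 in Karpas422 and 0.06 ± 0.15 in Pfeiffer. The untreated state differed from that of TMEM200A: DMSO arrays read 7.96 to 9.69 in WSU-DLCL2, SU-DHL6 and Pfeiffer, and 5.57 to 6.40 in Karpas422. On day 4 EPB41L2 was at -0.16 ± 0.09 in WSU-DLCL2 at 10xLCC, not called, when TMEM200A was already 2.13 above DMSO. Its DMSO means there were 9.54, 9.42 and 8.98 on days 2, 4 and 6, and its 10xLCC means 9.59, 9.26 and 9.77. The day 6 difference in WSU-DLCL2 thus came in part from a lower DMSO mean. A second bright probe set of EPB41L2, 201718_s_at, was at -0.73 ± 0.14 in WSU-DLCL2 on day 2 and at 0.39 ± 0.14 on day 6. It was at -0.12 ± 0.17 in SU-DHL6 on day 6, and at 0.92 ± 0.17 on day 4. The other probe sets, 242092_at and 231174_s_at, were at -0.06 ± 0.19 and -0.02 ± 0.13 in SU-DHL6 on day 6. In WSU-DLCL2 they were at 0.08 ± 0.13 and 0.42 ± 0.11 on that day.

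By its brightest probe set, the response of EPB41L2 differed between lines when the difference itself was tested. It was larger by 0.82 ± 0.22 in WSU-DLCL2 than in Karpas422 and by 1.21 ± 0.22 in SU-DHL6 than in Karpas422, with adjusted p-values of 0.0028 and 7.8e-06. Against Pfeiffer the excess was 0.73 ± 0.22 in WSU-DLCL2 and 1.12 ± 0.22 in SU-DHL6, with adjusted p-values of 0.010 and 3.1e-05. For the 8 neighbours and 2 relatives, 12 of 60 such tests passed. Over all genes the share that passed was 28.5% for WSU-DLCL2 with SU-DHL6, 24.1% for WSU-DLCL2 with Karpas422, 19% for WSU-DLCL2 with Pfeiffer, 26.6% for SU-DHL6 with Karpas422, 29.3% for SU-DHL6 with Pfeiffer and 27.3% for Karpas422 with Pfeiffer. TMEM200A was left out of this test.

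L3MBTL3, a reader of methylated lysines 224 kb before TMEM200A, rose by 0.75 ± 0.21 in SU-DHL6 on day 6 at 10xLCC (adjusted p = 0.0048). This call was lost without replicate B (adjusted p = 0.14) and with the 3′/5′ ratio as a covariate (adjusted p = 0.26). In the same line LAMA2, a laminin subunit, fell by 0.37 on day 6. That call was lost without replicate C (adjusted p = 0.053), when arrays were centred on bright genes (adjusted p = 0.16), over the mean of 4 LAMA2 probe sets (adjusted p = 0.096) and with the covariate (adjusted p = 0.33). AKAP7, an anchor of protein kinase A, was level by its brightest probe set, at 0.09 ± 0.09 in WSU-DLCL2. Its probe set 205771_s_at went from 3.84 to 5.35 there, a rise of 1.51 ± 0.16 with an adjusted p of 2.2e-08 by limma over single probe sets, of which 34.3% were called in that comparison. These probe sets of AKAP7 differed, and the mean over all 3 probe sets of the gene was called, at 0.53 (adjusted p = 6.8e-08).

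The relatives of TMEM200A showed small differences. TMEM200B read 4.76 to 6.62 and TMEM200C, by its brighter probe set, 4.81 to 5.38 over the DMSO arrays of the 4 lines. On day 6 at 10xLCC, TMEM200C rose by 0.52 ± 0.12 in WSU-DLCL2 by its brighter probe set (limma, adjusted p = 0.0012). Its other probe set, 238128_at, was at 0.04 ± 0.13 there (adjusted p = 0.85 by limma over single probe sets). TMEM200B fell by 0.37 in WSU-DLCL2 (adjusted p = 0.012), a call lost when arrays were centred on bright genes (adjusted p = 0.079), when the 2 groups were fitted alone (adjusted p = 0.052) or without replicate B (adjusted p = 0.36). In SU-DHL6, where TMEM200A had its largest increase, the differences were -0.08 ± 0.18 for TMEM200B and -0.23 ± 0.11 for TMEM200C, and neither passed. In limma on day 6 at 10xLCC neither relative was called in SU-DHL6, Karpas422 or Pfeiffer by its brightest probe set. None of these had an unadjusted p below 0.05 in that comparison. The other TMEM200C probe set, 238128_at, was at 0.31 ± 0.11 in Pfeiffer, with an unadjusted p of 0.011. It was not called (adjusted p = 0.71 by limma over single probe sets). After centring on bright genes TMEM200B was called in Karpas422, at 0.47 (adjusted p = 0.048).

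Genes that write and erase the mark were measured in every line. EZH2 itself fell by 0.51 in Karpas422, 0.30 in WSU-DLCL2 and 0.26 in SU-DHL6 (limma, adjusted p = 2.5e-06, 0.023 and 0.026). The calls in WSU-DLCL2 and SU-DHL6 were lost when arrays were centred on bright genes, with adjusted p-values of 0.11 and 0.35, and without replicate B, with 0.36 and 0.24. In SU-DHL6 the call was also lost without replicate C (adjusted p = 0.26), with the 2 groups fitted alone (adjusted p = 0.070) and with the covariate (adjusted p = 0.21). EZH1, the alternative catalytic subunit, rose by 0.51 ± 0.09, 0.76 ± 0.11 and 1.35 ± 0.10 in the same order of lines. With the probe sets of EZH1 averaged, Karpas422 gave no call (adjusted p = 0.36). Pfeiffer showed -0.13 ± 0.15 for EZH2 and 0.07 ± 0.16 for EZH1, neither called. Of the 8 genes EZH2, EZH1, EED, SUZ12, RBBP4, RBBP7, KDM6A and KDM6B, WSU-DLCL2 had 1 that rose and 5 that fell, where 17% of all genes rose and 19.2% fell. SU-DHL6 had 2 and 5, where 19.8% and 26.7% did. With the 3′/5′ ratio as a covariate 1 of these 7 calls in SU-DHL6 remained, that of EZH1. Karpas422 had 2 and 2, where 18.4% and 19.2% did. In Pfeiffer limma called none of the 8, with 0.164% and 0.0581% of all genes called, and none had an unadjusted p below 0.05. At LCC on day 6 EZH2 was at -0.06 ± 0.07 in Karpas422 and 0.03 ± 0.09 in SU-DHL6, neither called. In WSU-DLCL2 it was at -0.35 ± 0.10 there and was called.

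Genes were ranked by how closely their levels followed TMEM200A over the 36 group means, among 10256 genes whose group means spanned at least 1 (log2). These points share lines, control groups and 1 normalization, so the correlations are a description. The highest Pearson r were 0.91 for FXYD7, a regulator of the sodium pump, 0.90 for FCRL4, an Fc receptor-like protein of memory B cells, 0.90 for TMEM132B, 0.90 for the noncoding SETBP1-DT and 0.89 for CEACAM1, an adhesion receptor. PDCD4, an inhibitor of translation, had 0.86, ZBTB20, a zinc finger repressor, 0.85, and SORBS2, an adaptor of the actin cytoskeleton, 0.84. The next gene in the order had 0.838, so the end of this list is arbitrary. Each r is that of the brightest probe set. Over all probe sets of a gene the lowest r was 0.43 for ZBTB20, of 12, and 0.33 for SORBS2, of 10. It was 0.85 for FCRL4, 0.71 for TMEM132B and 0.80 for CEACAM1.

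All 8 genes differed from DMSO by less than TMEM200A in SU-DHL6 and in WSU-DLCL2 on day 6 at 10xLCC. FXYD7 was 2.44 above DMSO in SU-DHL6 and 0.90 above it in WSU-DLCL2 on day 6 at 10xLCC. FCRL4 came close in size in SU-DHL6 on day 6, at 5.53, but was at 0.32 on day 2 and 2.54 on day 4 at that dose, when TMEM200A was at 1.73 and 5.25. SETBP1-DT was at 0.82, 1.58 and 1.63 on the 3 days at that dose, with a small last step like that of TMEM200A. In WSU-DLCL2 FCRL4 reached 1.19, and in Karpas422 and Pfeiffer it stood at 0.23 and -0.02. SETBP1-DT and ZBTB20 differed from TMEM200A in Karpas422, where they were 0.91 and 1.38 above DMSO. They were also 0.60 and 1.05 above DMSO in WSU-DLCL2 on day 2 at 10xLCC, when TMEM200A was at 0.16.

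**Figure D3:**
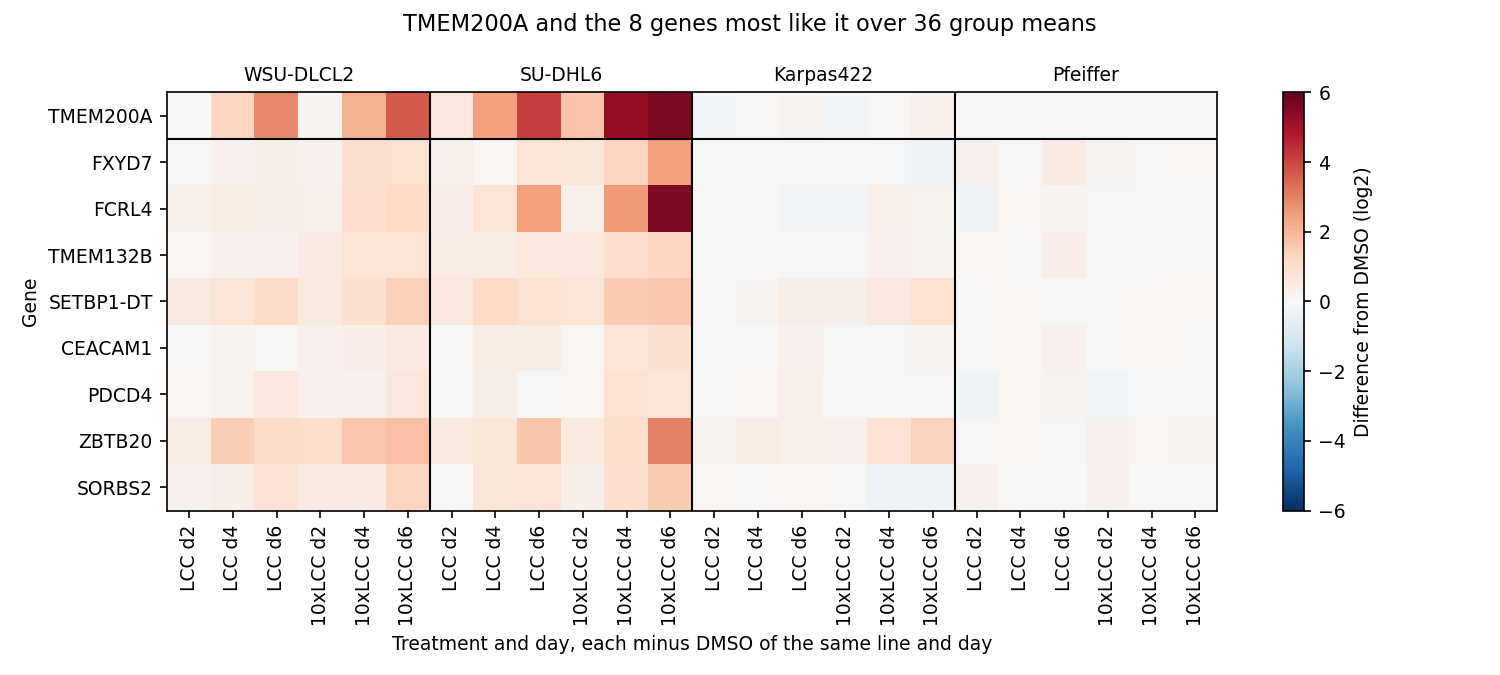
Difference from DMSO of the same line and day (log2, colour) for TMEM200A and the 8 genes most like it over 36 group means (rows), in the 24 treated groups (columns, ordered by line, dose and day). Red is higher than DMSO. TMEM200A is the strongest row, FCRL4 reaches a similar difference (5.53) only in SU-DHL6 on day 6 at 10xLCC, and ZBTB20 (1.38) and SETBP1-DT (0.91) are also higher in Karpas422.

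Other measures of likeness picked other genes. Of the 8 genes, 7 were also in the first 8 over single arrays, and 1, FCRL4, in the first 8 by Spearman rank. The lowest Pearson r over the group means were -0.82 for HEBP2, a heme-binding protein, -0.81 for SERPINB9, an inhibitor of granzyme B, and -0.79 each for LARP1B, an RNA-binding protein, and BSG, a membrane glycoprotein. These were bright genes, with DMSO means of at least 7.95.

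Over the 24 differences from DMSO, among 6128 genes, the highest r were 0.96 for FRAT1, an activator of Wnt signalling, 0.95 for LRRC41, 0.94 for RNASET2, a ribonuclease, and 0.94 for BANK1, a scaffold of B cell receptor signalling. HOOK2 had 0.93, KCNMB4, a potassium channel subunit, 0.92, DDIT4, an inhibitor of mTOR signalling, 0.92 and ITGB1, an integrin subunit, 0.91. None of these was among the 8 genes above. Their DMSO means were at least 6.02 in every line, and their r with TMEM200A over the group means was at most 0.46. Their likeness to TMEM200A lay in the differences from DMSO and not in the levels.

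Promoter windows were found for 6 of the 8 genes most like TMEM200A over the group means, 22 windows in all. Of these windows, most of which belonged to ZBTB20 and SORBS2, 3 held more CpG than the median of 14. The window of FCRL4 held 0, against 25 at TMEM200A. By gene, 3 of the 6 had at least 1 window above the median, TMEM132B, PDCD4 and ZBTB20. The median splits single windows, and a gene with more windows has more chances, so no share over all genes goes with this count. The genes most like TMEM200A over the differences from DMSO had other values. Their windows held 27 CpG in FRAT1, 17 in LRRC41, 37 in RNASET2 and 30 in DDIT4. HOOK2 had windows with 34, 15 and 29, ITGB1 with 39 and 4, and BANK1 with 13 and 5.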

How the data were processed

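The deposited table held linear intensities, 1 per probe set and array, which the authors made with GCRMA (version not given in the sources used here), per the submitters' processing notes. GCRMA subtracts background by probe sequence and normalizes arrays to each other, so a shift of all genes would be largely removed. Here log2 was taken, with a pseudocount of 0. Array medians were 6.25 to 6.45. The array annotation gave 1 gene for 41097 of 54675 probe sets, several for 1801 and none for 11777. Of 19775 genes, 19735 matched RefSeq (GRCh38.p14). A gene was represented by its probe set with the highest mean.

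A gene was tested in a line if at least 4 (log2) on 3 of its 27 arrays. For each line, limma 3.58.1 (R 4.3.3; lmFit and eBayes) was fitted over 9 groups. For differences between lines it was fitted over all arrays. P-values are two-sided and adjusted by Benjamini-Hochberg over all genes tested, and a gene was called below 0.05; "rose" and "fell" of tested genes mean this. The code was tested on simulated data. An exact test of 3 arrays against 3 cannot give a p below 0.1. Having 3 arrays per group sets the precision.

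TMEM200A, the gene lists, the 1 Mb window and the marker lists were chosen with earlier results of these data known. Named genes were TMEM200A, its 2 relatives, all measured genes within 1 Mb, 8 genes of EZH2 function, and the 8 highest and 4 lowest Pearson r over group means and 8 highest over differences from DMSO, each among genes spanning at least 1. FCRL4's Spearman place, and probe sets other than the brightest, were looked up after values were seen. Alternatives are given with the closing results.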

Additional observations from a re-analysis of the deposited data

Results flagged for a closer look

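The day 6 response to 10xLCC differed between lines in 12 of 60 tests over 10 genes and 6 pairs of lines (limma over all arrays, differences of log2 differences with SE). Each gene was represented by its brightest probe set only. EPB41L2 responded more in WSU-DLCL2 than in Karpas422 by 0.820 ± 0.22 and than in Pfeiffer by 0.732 ± 0.22, and more in SU-DHL6 than in Karpas422 by 1.21 ± 0.22 and than in Pfeiffer by 1.12 ± 0.22. For TMEM200C the response of WSU-DLCL2 exceeded that of Karpas422 by 0.583 ± 0.16 (adjusted p = 0.0041), that of Pfeiffer by 0.588 ± 0.16 (adjusted p = 0.0047) and that of SU-DHL6 by 0.753 ± 0.16 (adjusted p = 0.00019). The other probe set of TMEM200C, 238128_at, was at 0.04 ± 0.13 in WSU-DLCL2 and was not in these tests. Of WSU-DLCL2 and SU-DHL6, SU-DHL6 had the larger TMEM200A difference and the lower TMEM200C difference. For TMEM200B, WSU-DLCL2 minus Karpas422 was -0.618 ± 0.24 (adjusted p = 0.044).

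At the higher dose L3MBTL3 responded less in WSU-DLCL2 than in SU-DHL6, by -0.756 ± 0.24 (adjusted p = 0.012). It responded more in SU-DHL6 than in Pfeiffer, by 0.668 ± 0.24 (adjusted p = 0.027). At LCC on day 6 L3MBTL3 rose by 0.56 ± 0.13 in WSU-DLCL2 (limma, adjusted p = 0.0019). In SU-DHL6 it was at 0.57 ± 0.21 there, not called (adjusted p = 0.062). A difference between lines was not tested at LCC. For LAMA2, WSU-DLCL2 minus SU-DHL6 was 0.418 ± 0.15 (adjusted p = 0.032). ARHGAP18 responded more in Karpas422 than in Pfeiffer, by 0.786 ± 0.27 (adjusted p = 0.019). SAMD3, SMLR1, AKAP7 and LOC102723409 did not pass the threshold in any pair by their brightest probe sets. The AKAP7 probe set 205771_s_at was not in this test. It was at 1.51 ± 0.16 in WSU-DLCL2, -0.06 ± 0.11 in Karpas422 and 0.38 ± 0.21 in Pfeiffer.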

How the results depend on the processing

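The day 6 10xLCC difference of TMEM200A kept its sign in all alternatives run in all 4 lines. A pseudocount of 16 lowered it to 4.72 in SU-DHL6, 2.88 in WSU-DLCL2 and 0.150 in Karpas422, since it compresses dim values. Centring on bright genes gave 0.54 in Karpas422, and the 3′/5′ covariate, added after the data were seen, gave 6.32 in SU-DHL6. The mean of its probe sets is the same value, as there is 1. Neighbours called were 1 in WSU-DLCL2 and 0 in Karpas422 with a filter at log2 6, which tests fewer genes. That filter left 6751 of 14312 and 6941 of 14198 genes called in these lines. Neighbours called were 1, 2 and 0 of 4 measured in WSU-DLCL2, SU-DHL6 and Karpas422 within 0.5 Mb. Within 2 Mb they were 5, 9 and 4 of 17 measured. Of all genes, 36.1%, 46.5% and 37.6% were called in these lines. Within 1 Mb they were 2 of 8 in SU-DHL6 with the covariate, where 1675 of 18895 genes were called. In Karpas422 they were 4 of 8 after centring, where 8677 of 18873 genes were called. Leaving out each replicate in turn gave 1 to 2 of 8 in Karpas422, with 5114 to 6515 of 18873 genes called. Of the 8 genes most like TMEM200A over group means, 1 was shared with Spearman and 7 with Pearson over single arrays. Deviations from group means of same-letter DMSO and 10xLCC arrays of day 6 correlated at -0.31 to 0.32, and at 0.04 to 0.25 in Karpas422. These few arrays cannot settle whether the letters pair them. With the replicate block TMEM200A stayed at 3.67, 5.60, 0.31 and -0.10, neighbours called at 2, 4, 1 and 0, and genes called were 6703, 8669, 7155 and 36. Centring moved the median of all genes from 0.02 to 0.17, from -0.11 to 0.05 and from -0.03 to 0.20 in the lines mutated at Y641 (WSU-DLCL2, SU-DHL6, Karpas422), and their calls from 3199 higher and 3609 lower to 5418 and 2613, from 3734 and 5051 to 5307 and 2954, and from 3465 and 3629 to 6324 and 2353. The covariate left 1675 of 8785 calls in SU-DHL6, where it largely coincides with the 10xLCC group of day 6. Calls in Pfeiffer went from 42 to 449 after centring, 450 without LCC day 6 replicate B, 90 with the 2 groups alone, 28 with the covariate, and 10, 29 and 1 without replicate A, B or C. The cause was not tested. The low signal of TMEM200A in untreated cells limits what can be said of small changes.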
